A study of Homo sapiens with 16 samples.

Results

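PMA, a phorbol ester that stands in for diacylglycerol and switches on protein kinase C, was given to a Jurkat line edited to include exon 9 of HDAC7 (iE9) and to its wild-type parent (WT), and the results below concern how far the response of iE9 departed from that of WT. For each gene this departure is the change with PMA in iE9 minus the change with PMA in WT, on the log2 scale. It is called the response difference, and a negative value means a weaker rise or a deeper fall in iE9. It rests on 10 of the 16 libraries of the series: 3 of PMA-treated iE9 cells, 3 of unstimulated iE9 cells, 2 of PMA-treated WT cells and 2 of unstimulated WT cells. The other 6 libraries come from a line that lacks the exon (dE9) and served to estimate the spread.

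All cells were JSL1, a clone of Jurkat, which is an established human leukemic T cell line. PMA was used at 20 ng/mL, and the sample labels put harvest at 48 hours for treated and untreated cells alike, whereas the series design speaks of separate times for them. The edited lines were made with CRISPR-Cas9 at the endogenous gene. Whether a line is 1 clone or a pool, and whether replicates are separate cultures, is not given in the sources used here. The p-values therefore speak only to the spread among these libraries, and that spread may be technical. Polyadenylated RNA was sequenced, and the values are sums per gene of the authors' estimated read counts.

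HDAC7 belongs to the class IIa histone deacetylases and keeps genes that MEF2 transcription factors occupy silent. In thymocytes, kinases downstream of the T cell receptor and of diacylglycerol phosphorylate it, 14-3-3 proteins bind the phosphorylated form, and the complex leaves the nucleus, which frees MEF2 targets such as NR4A1. PMA enters this pathway below the receptor, through protein kinase C and RASGRP1, and also activates ERK, AP-1 and NF-kB. Exon 9 is a coding cassette exon, so the lines were built to differ in 1 internal stretch of the HDAC7 protein.

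The exon is the object of the edit and is shown here with the last 18 bases of the exon before it and the first 18 bases of the exon after it, in transcript orientation. It lies at chr12:47795906-47796016 (hg38, minus strand) within HDAC7 (chr12:47782722-47833132), is 111 bases long and adds 37 codons in frame. Capitals mark exon 9, and the letters were read from GENCODE release 29 transcripts, 4 protein-coding with this junction and 2 without the exon.
HDAC7 with exon 9: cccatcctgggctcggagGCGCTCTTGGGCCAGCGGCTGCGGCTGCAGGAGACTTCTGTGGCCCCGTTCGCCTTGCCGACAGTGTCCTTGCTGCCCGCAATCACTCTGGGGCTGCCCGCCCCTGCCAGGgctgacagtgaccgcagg
HDAC7 without exon 9: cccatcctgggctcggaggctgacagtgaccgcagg

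The exon 9 share, which is the TPM (a transcript abundance corrected for length and depth) of HDAC7 transcripts that hold the exon over that of all transcripts that span its position, was taken first as a check of the labels. It was 42.31%, 63.0% and 44.27% in PMA-treated iE9 libraries and 58.27%, 51.78% and 74.85% in unstimulated iE9 libraries. In WT it was 43.08% and 53.76% with PMA and 46.6% and 47.49% without it. The PMA-treated iE9 libraries overlapped the PMA-treated WT libraries, while the unstimulated iE9 libraries all lay above the unstimulated WT libraries. The label iE9 is therefore not borne out by the share in PMA-treated cells, and directions below concern libraries labelled iE9. The change in share with PMA, iE9 minus WT, was -13.15 percentage points, given with no test, and it was -25.16 points over protein-coding transcripts alone.

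HDAC7 itself was at 405, 325 and 322 CPM in PMA-treated iE9 cells and 204, 129 and 172 CPM in unstimulated iE9 cells. CPM here are counts per 1e6 counts of a library after TMM scaling, which aligns libraries on the bulk of their genes. In WT, HDAC7 was at 244 and 238 CPM with PMA and 45.7 and 58.1 CPM without it. It rose with PMA in iE9 (log2 fold change 1.06 ± 0.21, standard error, adjusted p = 0.00234) and in WT (2.21 ± 0.27, adjusted p = 0.000128). Unstimulated iE9 cells already held more HDAC7 RNA than unstimulated WT cells (1.70, adjusted p = 0.00698). The response difference was -1.15 ± 0.34, with an adjusted p of 0.509 over all genes tested, and did not pass.

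**Figure D1:**
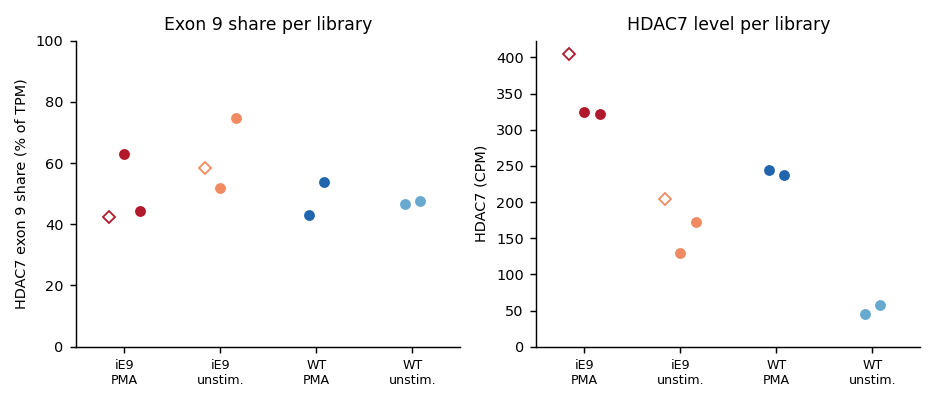
Share of HDAC7 transcripts that hold exon 9 (left, percent of TPM) and HDAC7 level (right, CPM), 1 point per library in 4 groups, with the iE9 libraries numbered 1 as open diamonds. Shares of iE9 and WT overlap with PMA, and HDAC7 is higher with PMA in each line.

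Depth was 14.54 to 19.76 estimated counts per library in units of 1e6, over the 10 libraries. Mitochondrially encoded genes took 9.17% of counts in unstimulated iE9 library 1 and 12.81% in PMA-treated iE9 library 1, against 3.48% to 6.04% in the other 8 libraries. The median standard deviation of log2 CPM over genes was 0.35 in PMA-treated and 0.36 in unstimulated iE9 libraries, and 0.13 and 0.14 once those numbered 1 were left out, against 0.15 and 0.13 in WT. Of the variance among the 10 libraries, a first principal component held 47.4% and parted PMA-treated from unstimulated cells in both lines, and a second held 18% and set iE9 (-70.3 to -4.8) apart from WT (28.9 to 65.5). All 10 T lineage markers examined were detected in all 4 groups.

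PMA changed many genes in each line, but no single gene passed the test of the response difference. With an adjusted p under 0.05 (Benjamini-Hochberg over 18073 genes, edgeR quasi-likelihood F test), PMA changed 4892 genes in iE9 (27.1% of those tested, 2283 up and 2609 down) and 4038 genes in WT (22.3%, 2003 up and 2035 down). For the response difference 0 of 18073 genes passed by this test (0%), and 1022 (5.65%) had an unadjusted p under 0.05, of which 444 (2.46%) were higher and 578 (3.2%) lower in iE9. DESeq2 called 62 genes (0.343%, 24 or 0.133% higher and 38 or 0.21% lower) and limma voom 16 (0.0885%), of which 4 were higher (0.0221%) and 12 lower (0.0664%). In 2335 genes (12.9%) all 9 pairings of a PMA-treated with an unstimulated iE9 library gave a change above (1197 genes, 6.62%) or below (1138 genes, 6.3%) all 4 such pairings in WT. Between the lines themselves, 249 genes (1.38%) differed without PMA, 122 higher in iE9 (0.675%) and 127 lower (0.703%), and 203 genes (1.12%) differed with PMA, 60 higher (0.332%) and 143 lower (0.791%).

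The count of calls depended on the genes and libraries in the fit. With no filter on low counts, 292 of 33304 genes passed (0.877%), 110 higher (0.33%) and 182 lower (0.546%). With the 10 iE9 and WT libraries alone, 30 of 17326 genes passed (0.173%), 15 in each direction (0.0866% each). With both iE9 libraries numbered 1 left out and dE9 still in the fit, 2 of 17730 genes passed (0.0113%), with ZYX among them (-1.60, adjusted p = 0.0328). With both left out and dE9 out as well, a fit chosen after the data were seen, 1140 of 16772 genes passed (6.8%), 679 higher (4.05%) and 461 lower (2.75%). That fit of 2 libraries a group is named the 2-library fit below. The part of the mitochondrial share and of the spread in these differences was not tested.

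Over genes called in dE9, the response of iE9 was the smaller one more often than not. The calls in dE9 come from the fit of all 16 libraries, whose filter and spread the iE9 and WT libraries share. In the 6060 genes that PMA changed in dE9, the change in iE9 was smaller than in WT, measured in the direction of dE9, in 4025 (66.4%), with a median signed difference of -0.18. Among the 3082 that rose in dE9 the median change was 0.98 in iE9 and 1.25 in WT, with 1.41 in dE9. Among the 2978 that fell in dE9 it was -0.89 in iE9 and -1.03 in WT, with -1.09 in dE9. These are descriptions with no test. The median response difference over all 18073 genes was -0.06. Of the 578 genes with an unadjusted lower response, 317 (54.8%) had a called rise with PMA in WT, against 11.1% of all genes, but both sets draw on the same WT libraries, so the share is fixed in part by the design.

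**Figure D2:**
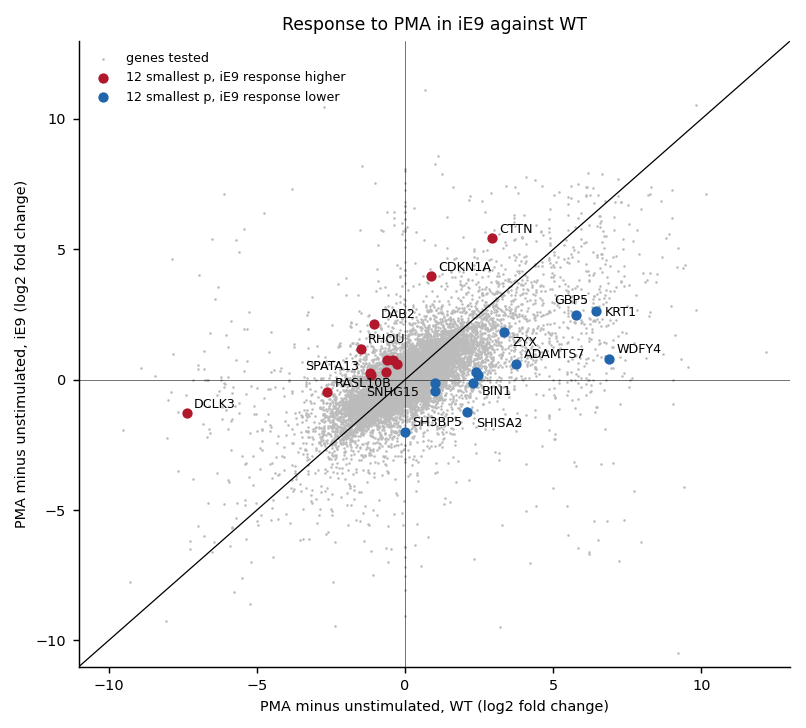
Log2 fold change with PMA in WT (horizontal) and in iE9 (vertical), 1 grey point per gene tested, with the line of equal response. The 12 genes per direction with the smallest p are coloured, 16 of them labelled: GBP5 and KRT1 lie right of the line with a rise in both lines, BIN1 at 2.29 in WT and -0.12 in iE9, and CDKN1A at 0.89 in WT and 3.97 in iE9.

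The 12 genes with the smallest p among those with a lower response in iE9 included BIN1, SNHG15, GBP5, WDFY4, KRT1, SHISA2, SH3BP5, TUBB3, ZYX, FMNL1 and ADAMTS7. Their response differences ran from -6.08 to -1.13 and their adjusted p from 0.13 to 0.27, so none passed. In all 12 every iE9 pairing lay below every WT pairing, against 6.3% of all genes. Their choice by small p in these same libraries favours this, so it is no further support. Those named fell into 3 patterns of levels, described in turn.

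In the first pattern, seen in BIN1, GBP5, TUBB3, FMNL1 and ZYX, every unstimulated iE9 library lay above the unstimulated WT libraries, and iE9 was not below WT by the test with PMA. BIN1 (chr2:127048027-127107355, minus strand), which encodes a membrane-curving protein of endocytosis, was at 18.7, 17 and 18.5 CPM with PMA and 21.7, 16.9 and 20.1 CPM without it in iE9. In WT, BIN1 was at 18.4 and 16.2 CPM with PMA and 2.35 and 4.68 CPM without it. The unstimulated WT libraries were the low group and the other 3 groups overlapped. BIN1 rose with PMA in WT (2.29 ± 0.29, adjusted p = 0.000153), its change in iE9 did not pass (-0.12 ± 0.22, adjusted p = 0.737), and the response difference was -2.41 ± 0.36 (unadjusted p = 7.57e-06, adjusted p = 0.13). Without PMA, BIN1 was higher in iE9 than in WT (2.47, adjusted p = 0.000754).

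GBP5 (chr1:89258950-89272804, minus strand) encodes an interferon-inducible guanylate-binding protein. It was at 229, 187 and 234 CPM with PMA and 38.4, 35.8 and 40.6 CPM without it in iE9. In WT, GBP5 was at 81.5 and 51.2 CPM with PMA and 1.27 and 1.19 CPM without it. All 4 groups were apart, and iE9 was the higher line in both states. GBP5 rose in iE9 (2.50 ± 0.32, adjusted p = 9e-05) and in WT (5.75 ± 0.50, adjusted p = 9.56e-06), with a response difference of -3.25 ± 0.56 (adjusted p = 0.13).

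TUBB3, the class III beta-tubulin of neurons, was low in unstimulated WT cells alone. Its levels in iE9 were 12.5, 24.9 and 19.5 CPM with PMA and 14.9, 16.6 and 19.1 CPM without it, and in WT 23.5 and 24.3 CPM with PMA and 3.75 and 4.98 CPM without it. It rose in WT (2.45 ± 0.38, adjusted p = 0.000577) and not by the test in iE9 (0.17 ± 0.29, adjusted p = 0.7). Reads shared within the tubulin family were divided by estimate, which makes its counts uncertain. FMNL1, a formin that builds actin filaments in leukocytes, rose in WT (1.02, adjusted p = 0.00203) and stood at 250 to 268 CPM with PMA and 252 to 312 CPM without it in iE9, a response difference of -1.13 ± 0.24. ZYX, the focal adhesion protein zyxin, rose in both lines, by 1.83 in iE9 (adjusted p = 2.49e-05) and 3.33 in WT (adjusted p = 5.64e-06). It was higher in unstimulated iE9 cells than in unstimulated WT cells (1.01, adjusted p = 0.0408).

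In the second pattern, seen in KRT1, SNHG15, WDFY4 and ADAMTS7, iE9 was lower than WT by the test once PMA was given. KRT1, a type II keratin of the differentiating epidermis, was at 40.8, 79.7 and 198 CPM with PMA and 13.3, 13.8 and 23.9 CPM without it in iE9. In WT, KRT1 was at 574 and 554 CPM with PMA and 5.9 and 7.11 CPM without it. PMA-treated WT libraries were the highest of the 4 groups and unstimulated WT libraries the lowest. KRT1 rose in iE9 (2.64 ± 0.47, adjusted p = 0.001) and in WT (6.43 ± 0.69, adjusted p = 4.67e-05), and was lower in iE9 than in WT with PMA (-2.41, adjusted p = 0.0287). The response difference was -3.79 ± 0.74 (adjusted p = 0.201).

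SNHG15, a long noncoding RNA that hosts a small nucleolar RNA, was at 61.6, 62.8 and 76.9 CPM with PMA and 95.7, 78.7 and 94.5 CPM without it in iE9. In WT, SNHG15 was at 201 and 182 CPM with PMA and 89.4 and 101 CPM without it. The PMA-treated WT libraries were the high group and the PMA-treated iE9 libraries the low one, while the unstimulated libraries of the lines overlapped. SNHG15 rose in WT (1.01 ± 0.19, adjusted p = 0.00193), its change in iE9 did not pass (-0.42, adjusted p = 0.0535), and with PMA it was lower in iE9 than in WT (-1.51, adjusted p = 0.000691). The response difference was -1.42 ± 0.24 (adjusted p = 0.13).

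WDFY4, a BEACH-domain protein needed for cross-presentation in mouse dendritic cells, was at 2.94, 2.46 and 0.497 CPM with PMA and 2.5, 0.577 and 0.209 CPM without it in iE9. In WT, WDFY4 was at 66.5 and 38.9 CPM with PMA and 0.469 and 0.415 CPM without it. It was high in PMA-treated WT libraries and near the floor of detection in the others. WDFY4 rose in WT (6.88 ± 1.01, adjusted p = 0.000435), and with PMA it was lower in iE9 than in WT (-4.75, adjusted p = 0.00619). ADAMTS7, a secreted metalloprotease, was at 1.66 to 1.85 CPM with PMA in iE9 and at 9.08 and 8.4 CPM with PMA in WT, with a response difference of -3.13 ± 0.68.

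In the third pattern, seen in SH3BP5 and SHISA2, the gene fell with PMA in iE9. The patterns overlap, since SH3BP5 also meets the first and SHISA2 the second. SH3BP5, a JNK-binding protein of mitochondria that also activates RAB11, was at 12.2, 16 and 13.2 CPM with PMA and 56.3, 36.2 and 71.5 CPM without it in iE9. In WT, SH3BP5 was at 18.6 and 21.6 CPM with PMA and 18.8 and 21.3 CPM without it. It fell in iE9 (-1.99 ± 0.25, adjusted p = 7.85e-05) while the WT groups overlapped (0.00 ± 0.30, adjusted p = 0.996). The response difference was -1.99 ± 0.39 (adjusted p = 0.201), and SH3BP5 was higher in iE9 than in WT without PMA (1.45, adjusted p = 0.0259).

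SHISA2, whose frog relative holds immature FGF and Wnt receptors in the endoplasmic reticulum, was at 3.84, 5.98 and 7.12 CPM with PMA and 11.1, 10.3 and 19.1 CPM without it in iE9. In WT, SHISA2 was at 30.9 and 54.5 CPM with PMA and 8.11 and 11.9 CPM without it. The unstimulated libraries of both lines overlapped, and the PMA-treated libraries lay on opposite sides of them. SHISA2 fell in iE9 (-1.25 ± 0.41, adjusted p = 0.0362) and rose in WT (2.09 ± 0.51, adjusted p = 0.00937), with a response difference of -3.35 ± 0.65 (adjusted p = 0.201). With PMA it was lower in iE9 than in WT (-2.92, adjusted p = 0.00619).

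The 12 genes with the smallest p among those with a higher response in iE9 were SPATA13, DCLK3, RASL10B, CTTN, TBC1D15, CDKN1A, RHOU, DAB2, OXNAD1, PEAK1, RBFOX2 and SMURF1. Their response differences ran from 0.91 to 6.09 and their adjusted p from 0.157 to 0.352, so none passed. In all 12 every iE9 pairing lay above every WT pairing, against 6.62% of all genes, which their choice by small p again favours. Of these, 5 rose with PMA in iE9 with a WT change that did not pass, 5 fell in WT with an iE9 change that did not pass, CTTN rose in both lines, and RHOU rose in iE9 and fell in WT.

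CDKN1A (chr6:36676460-36687339, plus strand) encodes p21, which inhibits cyclin-dependent kinases and is a p53 target. It was at 55.4, 28.7 and 36.5 CPM with PMA and 2.17, 2.83 and 2.65 CPM without it in iE9. In WT, CDKN1A was at 4.68 and 5.32 CPM with PMA and 2.01 and 3.38 CPM without it. The PMA-treated iE9 libraries were the high group, and the unstimulated libraries of the lines overlapped. CDKN1A rose in iE9 (3.97 ± 0.46, adjusted p = 3.5e-05) and not by the test in WT (0.89 ± 0.52, adjusted p = 0.243). The response difference was 3.09 ± 0.68 (adjusted p = 0.27), and with PMA the gene was higher in iE9 than in WT (3.00, adjusted p = 0.011).

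RHOU, an atypical small GTPase, was at 53.5, 46.5 and 35.5 CPM with PMA and 21.9, 21 and 16.4 CPM without it in iE9. In WT, RHOU was at 8.62 and 10.9 CPM with PMA and 32.5 and 22.9 CPM without it. The order of the 2 states was thus reversed between the lines, with no overlap in either. RHOU rose in iE9 (1.19 ± 0.37, adjusted p = 0.0271) and fell in WT (-1.50 ± 0.46, adjusted p = 0.0301), a response difference of 2.69 ± 0.59 (adjusted p = 0.27).

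CTTN encodes cortactin, which binds branched actin. It was at 81.2, 64.2 and 62.3 CPM with PMA and 1.68, 1.36 and 1.81 CPM without it in iE9. In WT, CTTN was at 63.8 and 83.4 CPM with PMA and 13 and 6.46 CPM without it. With PMA the lines overlapped, and without it iE9 was the low group (-2.59, adjusted p = 0.00822). CTTN rose in both, by 5.42 ± 0.40 in iE9 (adjusted p = 1.02e-06) and 2.92 ± 0.42 in WT (adjusted p = 0.00036), and its response difference was 2.50 ± 0.54 (adjusted p = 0.27). DAB2, an adaptor of clathrin-mediated endocytosis, also started lower in iE9 (-3.43, adjusted p = 0.00623). It rose there (2.15, adjusted p = 0.00378), to 2.43, 2.96 and 1.93 CPM, against 2.57 and 3.13 CPM in PMA-treated WT cells.

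SPATA13 (chr13:23979805-24307074, plus strand) encodes a guanine nucleotide exchange factor for RAC1 and CDC42. It was at 49, 42.5 and 39.8 CPM with PMA and 42.5, 33.5 and 34.5 CPM without it in iE9. In WT, SPATA13 was at 18.8 and 19.9 CPM with PMA and 44.6 and 43.4 CPM without it. PMA-treated WT libraries were the low group. SPATA13 fell in WT (-1.19 ± 0.20, adjusted p = 0.00117) and its change in iE9 did not pass (0.25 ± 0.16, adjusted p = 0.277), a response difference of 1.44 ± 0.26 (adjusted p = 0.157).

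The small GTPase gene RASL10B was at 12.7, 17.3 and 13 CPM with PMA and 15.1, 25.9 and 18.8 CPM without it in iE9. In WT, RASL10B was at 6.97 and 6.42 CPM with PMA and 41.5 and 40.8 CPM without it, so that the 2 WT groups enclosed the iE9 groups. It fell in WT (-2.62, adjusted p = 0.000154) and the response difference was 2.14 ± 0.41 (adjusted p = 0.201). OXNAD1, an oxidoreductase-domain protein, fell in WT (-1.15, adjusted p = 0.00344), as did TBC1D15, which inactivates RAB7 (-0.66, adjusted p = 0.00903), while neither passed in iE9 (0.18 and 0.29). DCLK3, a doublecortin-like kinase, had 1 count in the PMA-treated WT libraries and 181 in the unstimulated ones, a ratio of unstimulated over PMA of 203 with a 95% counting interval of 36.1 to 8079. In iE9 it was at 0.64, 0.185 and 0.276 CPM with PMA and 0.76, 0.629 and 1.32 CPM without it.

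PEAK1, SMURF1 and RBFOX2 rose in iE9 and had negative WT values that did not pass. PEAK1, a pseudokinase of focal adhesions, was at 93.2, 81.1 and 83.9 CPM with PMA and 57.3, 46.3 and 48.8 CPM without it in iE9, and rose there by 0.76 (adjusted p = 0.00437). In WT, PEAK1 was at 39.9 and 46.2 CPM with PMA and 59.8 and 55.3 CPM without it (-0.42, adjusted p = 0.165). SMURF1, a ubiquitin ligase that acts on TGF-beta family signalling and RHOA, rose by 0.62 in iE9 (adjusted p = 0.00391), against -0.28 in WT (adjusted p = 0.248). RBFOX2, a splicing regulator, rose by 0.76 in iE9 (adjusted p = 0.0113), against -0.62 in WT (adjusted p = 0.0811).

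**Figure D3:**
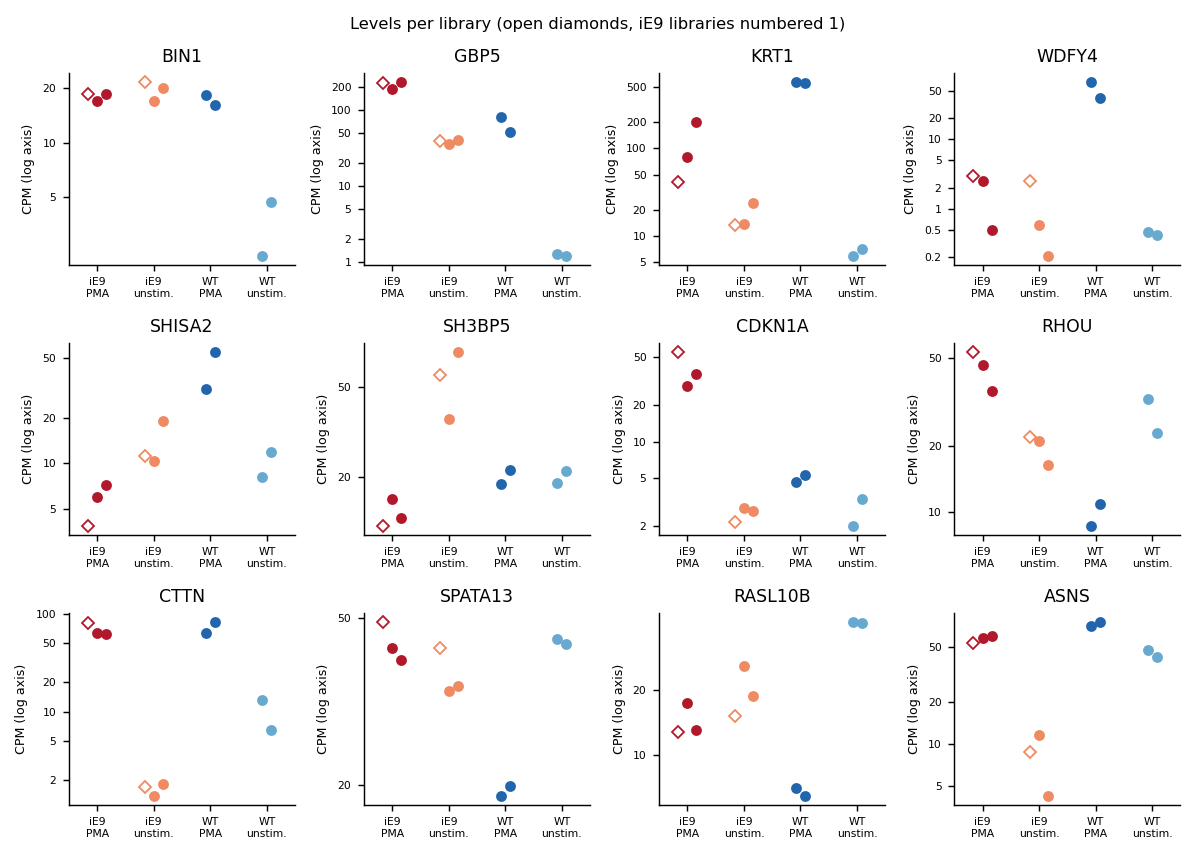
CPM per library on log axes for 12 genes, 1 point per library in the 4 groups, with the iE9 libraries numbered 1 as open diamonds. BIN1 and GBP5 are lowest in unstimulated WT, KRT1 and WDFY4 are highest in PMA-treated WT, and CDKN1A is highest in PMA-treated iE9 (28.7 to 55.4 CPM).

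In 6 of the 18073 genes tested PMA passed the test in both lines with opposite signs. They were noted after their values were seen, and besides SHISA2 and RHOU they are CPA3, CD248, LIME1 and the ribosomal pseudogene RPS7P10, whose reads can be shared with its parent. LIME1, a transmembrane adaptor of T and B cell receptor signalling, was at 98.6, 74.5 and 78.9 CPM with PMA and 160, 111 and 123 CPM without it in iE9. In WT, LIME1 was at 123 and 109 CPM with PMA and 53.3 and 65.7 CPM without it. It fell in iE9 (-0.65, adjusted p = 0.0407) and rose in WT (0.96, adjusted p = 0.0201), a response difference of -1.61 ± 0.35 (adjusted p = 0.27). CD248, the glycoprotein endosialin, fell in iE9 (-1.89, adjusted p = 0.0319) and rose in WT (2.97, adjusted p = 0.0336), where it had 45 counts with PMA and 5 without it. CPA3, the mast cell carboxypeptidase A, had 0 counts in the PMA-treated iE9 libraries and 6 in the unstimulated ones, and 169 against 0 in WT. Its fall in iE9 (adjusted p = 0.0463) thus rested on 6 counts. RPS7P10 was at 0.256, 0.185 and 0.386 CPM with PMA and 7.76, 7.18 and 0.209 CPM without it in iE9. Its fall there was therefore not seen against unstimulated iE9 library 3.

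Gene lists were then read through their counts and medians, beside the whole table: over all 18073 genes 8082 response differences were above 0 and 9987 below, and the median was -0.06. No member of the 35 lists passed the test of the response difference. The 2-library fit, chosen after the data were seen, called 6.8% of all genes. Its adjusted p is given below only for some members that passed it, so it is no further support. IL2RA, CD5, RAG1, MYC, TNF, TRAF1, TAPBP and YWHAQ passed in none of 29 other fits, the 2-library fit included. Members that rose or fell with PMA are to be read beside the whole table, where 12.6% of genes rose and 14.4% fell in iE9, and 11.1% rose and 11.3% fell in WT. A range in brackets after a median gives its lowest and highest value as each of the 16 libraries was left out in turn. Members named below are those of smallest p in a list, genes named in any case (CD69, CD28, IL2RA, CD5, NR4A1, CD3E, RAG1, MYC) and a few more that were chosen after their values were seen.

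Among the targets and partners of HDAC7, list medians were between -0.22 and 0.03, and single members ranged more widely. Of 16 HDAC and co-repressor genes 7 were above 0 and 9 below, with a median of -0.03 (-0.10 to 0.05) and HDAC9 the lowest at -1.66 ± 1.30. Of the 7 14-3-3 genes 4 were above 0, with a median of 0.03 (-0.19 to 0.26). YWHAQ, the 14-3-3 theta gene, gave 0.30 ± 0.37. NR4A1, the nuclear receptor that MEF2 drives in thymocytes, was at 1.92, 1.85 and 4.08 CPM with PMA and 4.78, 5.19 and 8.98 CPM without it in iE9. In WT, NR4A1 was at 11 and 14.7 CPM with PMA and 5.56 and 6.4 CPM without it. PMA-treated iE9 libraries were all below PMA-treated WT libraries, and the unstimulated libraries of the lines overlapped. Neither change passed (-1.26 in iE9, adjusted p = 0.0818, and 1.10 in WT, adjusted p = 0.214), and the response difference was -2.36 ± 0.80 (adjusted p = 0.663, and 0.0222 in the 2-library fit). NR4A3, its relative, rose in both lines, by 1.80 in iE9 (adjusted p = 0.034) and 4.27 in WT (adjusted p = 0.00168). Over the 10 MEF2, NR4A and MEF2-regulator genes tested the median was -0.22 (-0.48 to -0.06). In that list KLF2, a quiescence factor of T cells, gave -1.78 ± 1.07.

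In the pathways that PMA drives, kinases and feedback genes responded in both lines. Of 16 ERK feedback regulators 12 rose in iE9 and 11 in WT, and the median response difference was -0.42 (-0.57 to -0.05, with -0.05 without PMA-treated WT library 2), with 7 above 0 and 9 below. DUSP4, a phosphatase that removes ERK activity, was at 6.15, 5.91 and 5.68 CPM with PMA and 0.434, 1.57 and 1.6 CPM without it in iE9. In WT, DUSP4 was at 8.79 and 9.99 CPM with PMA and 0.335 and 0.534 CPM without it. It rose in iE9 (2.30, adjusted p = 0.00169) and in WT (4.40, adjusted p = 0.000292). Of 19 AP-1, EGR and other early factors 7 rose in iE9 and 10 in WT, with a median of -0.09 (-0.29 to 0.09). JUN, an AP-1 subunit, was at 24.6, 30.8 and 28.5 CPM with PMA and 52.8, 47.6 and 31.2 CPM without it in iE9, against 48.2 and 43.5 CPM with PMA and 22.2 and 18.8 CPM without it in WT. The 2 states of JUN stood in opposite order in the 2 lines, it rose in WT (1.16, adjusted p = 0.0491), and its response difference was -1.81 ± 0.51 (adjusted p = 0.492, and 0.00432 in the 2-library fit).

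Of 24 protein kinase C and diacylglycerol genes 9 rose and 2 fell in iE9 and 7 rose and 3 fell in WT, with a median of 0.03 (-0.06 to 0.08). PRKD3, a protein kinase D, which is the family that phosphorylates class IIa deacetylases, was at 107, 86.2 and 88.9 CPM with PMA and 27, 27.5 and 33.8 CPM without it in iE9. In WT, PRKD3 was at 34 and 44.5 CPM with PMA and 37.4 and 35.2 CPM without it. PMA-treated iE9 libraries were the high group and the other 3 groups lay close together. PRKD3 rose in iE9 (1.68 ± 0.24, adjusted p = 0.000193) and not by the test in WT (0.11 ± 0.29, adjusted p = 0.816), a response difference of 1.57 ± 0.37 (adjusted p = 0.352). DGKH, a diacylglycerol kinase, rose in iE9 (1.35, adjusted p = 0.000202), against 0.36 in WT (adjusted p = 0.297). Of 18 NF-kB genes 7 rose in iE9 and 10 in WT, with a median of -0.20 (-0.21 to -0.12). TRAF1, an NF-kB target, rose in both (1.51 in iE9 and 2.20 in WT).

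Most tested members of the T cell receptor, activation and cytokine lists had response differences below 0. Of 10 activation antigens 9 were below 0, with a median of -0.88 (-1.25 without PMA-treated iE9 library 1 to -0.39 without unstimulated iE9 library 1). CD69, an early activation antigen, was at 764, 458 and 599 CPM with PMA and 31.1, 18.8 and 29.2 CPM without it in iE9, against 403 and 400 CPM with PMA and 10.8 and 12.7 CPM without it in WT. The iE9 libraries were above WT in both states, and CD69 rose in both lines (4.53 in iE9 and 5.09 in WT), with a response difference of -0.56 ± 0.45. CD38, an ectoenzyme that hydrolyses NAD, was at 78.4, 75.8 and 72.9 CPM with PMA and 79.3, 57.4 and 58.2 CPM without it in iE9. In WT, CD38 was at 85 and 76 CPM with PMA and 20.6 and 27.1 CPM without it. It rose in WT (1.75, adjusted p = 0.00326), and unstimulated iE9 cells were higher than unstimulated WT cells (1.45, adjusted p = 0.0465). IL2RA, the alpha chain of the interleukin 2 receptor, rose in both (5.85 in iE9 and 6.56 in WT), and CD5, an inhibitory co-receptor, passed in neither (1.26 in iE9 and 0.90 in WT).

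Of 20 T cell receptor subunits and proximal signalling genes 9 rose in each line, and the median response difference was -0.37 (-0.47 to -0.25), with 14 below 0. LCP2, the adaptor SLP-76, rose by 1.92 in iE9 (adjusted p = 3.45e-05) and 2.85 in WT (adjusted p = 2.26e-05), and CD3E, a chain of the CD3 complex, gave 0.28 in iE9 and 0.88 in WT, which did not pass. Of 27 co-receptors and costimulatory or inhibitory receptors 18 were below 0, with a median of -0.55 (-0.77 to -0.35). PDCD1, the inhibitory receptor PD-1, was at 4.16, 4.62 and 6.35 CPM with PMA and 3.8, 3.2 and 3.48 CPM without it in iE9. In WT, PDCD1 was at 4.28 and 3.57 CPM with PMA and 0.201 and 0.237 CPM without it, so the unstimulated WT libraries alone were low. PDCD1 rose in WT (4.12, adjusted p = 0.0034) and was higher in unstimulated iE9 than in unstimulated WT cells (3.95, adjusted p = 0.0296).

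CD28, the costimulatory receptor, was at 771, 414 and 465 CPM with PMA and 106, 38.8 and 49.3 CPM without it in iE9. In WT, CD28 was at 310 and 285 CPM with PMA and 9.25 and 7.65 CPM without it. It rose in both lines, by 3.09 in iE9 (adjusted p = 0.00372) and 5.14 in WT (adjusted p = 0.00157), and iE9 was the higher line in both states. Of 23 cytokine receptor chains 13 rose in iE9 and 14 in WT, with a median of -0.38 (-0.44 to -0.05, with -0.05 without unstimulated iE9 library 1). IL21R, the interleukin 21 receptor, rose by 1.50 in iE9 (adjusted p = 0.0197) and 5.13 in WT (adjusted p = 0.000292). It was at 39.2, 27.9 and 24.1 CPM with PMA and 16.7, 8.71 and 6.75 CPM without it in iE9, against 10.3 and 12.2 CPM with PMA and 0.335 and 0.296 CPM without it in WT. Of 13 cytokines and chemokines 9 were below 0, with a median of -0.76 (-0.91 to -0.54). TNF had 76 counts in PMA-treated and 3 in unstimulated iE9 libraries, a ratio of 26.3 with a 95% counting interval of 8.66 to 130. Its response difference was above 0, unlike the list median, at 4.13 ± 2.23 (adjusted p = 0.946).

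Most thymocyte regulators were also below 0, and most NOTCH genes above it. Of 35 thymocyte transcription factors and rearrangement genes 25 were below 0, with a median of -0.30 (-0.38 to -0.23). LYL1, a basic helix-loop-helix factor of early progenitors, had 579 counts in PMA-treated and 3 in unstimulated WT libraries, a ratio of 172 (95% counting interval 58.5 to 835). In iE9 it was at 0.384, 0.308 and 0.717 CPM with PMA and 0.76, 0.367 and 0.139 CPM without it. GATA3, a T lineage factor, rose in both lines (1.97 in iE9 and 2.92 in WT). RAG1, which cuts DNA for receptor gene assembly, was at 2.69, 1.91 and 1.88 CPM with PMA and 244, 229 and 159 CPM without it in iE9, against 9.08 and 9.55 CPM with PMA and 943 and 750 CPM without it in WT. It fell in both lines (-6.61 in iE9 and -6.50 in WT), with a response difference of -0.10 ± 0.50, and was lower in iE9 than in WT in both states. Of 19 NOTCH genes 15 were above 0, with a median of 0.53 (0.35 to 0.85). MAML2, a co-activator of NOTCH, rose in both lines, by 4.68 in iE9 (adjusted p = 2.83e-05) and 2.42 in WT (adjusted p = 0.0101).

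The median gene of DNA replication and mitosis was lower with PMA in both lines, by less in iE9. All 27 members examined had a response difference above 0, with a median of 0.92, where 8082 of 18073 genes did so in the whole table. The median change was -1.03 in iE9 and -2.03 in WT. By the test, 6 of the 27 fell and 0 rose in iE9, where 14.4% of all genes fell, and 20 fell and 0 rose in WT, where 11.3% did. In 20 of the 27, every iE9 pairing lay above every WT pairing, against 6.62% of all genes. No member passed the test of the response difference, and 2 had an unadjusted p under 0.05. Of the fits above, DESeq2, limma voom, the 10 libraries alone and that without iE9 libraries numbered 1 but with dE9 called 0. The fit with no filter called 1. In the 2-library fit, chosen after the data were seen, 22 passed, all higher, where 4.05% of all genes passed as higher. Members of a list can vary together, so their counts are not separate observations. When each library was left out in turn the median stayed between 0.81 and 1.06 and all 27 stayed above 0. In these bulk libraries, fewer cycling cells and less RNA per cell cannot be told apart.

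CDK2, a kinase of the G1 to S transition, was at 119, 119 and 115 CPM with PMA and 107, 130 and 134 CPM without it in iE9. In WT, CDK2 was at 75.4 and 72.8 CPM with PMA and 144 and 148 CPM without it. It fell in WT (-0.98 ± 0.32, adjusted p = 0.0389) and the iE9 groups overlapped (-0.07 ± 0.26, adjusted p = 0.866), a response difference of 0.90 ± 0.41 (adjusted p = 0.873, and 0.00353 in the 2-library fit). MCM4, a subunit of the replicative helicase, fell by 1.62 in iE9 (adjusted p = 0.0266) and by 2.73 in WT (adjusted p = 0.0078). Its levels were 65, 94.4 and 78 CPM with PMA and 212, 264 and 253 CPM without it in iE9, against 45.3 and 49.8 CPM with PMA and 328 and 302 CPM without it in WT. The PMA-treated iE9 libraries were thus above the PMA-treated WT libraries, and the unstimulated ones below.

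RRM2, the small subunit of ribonucleotide reductase, was at 150, 214 and 178 CPM with PMA and 336, 355 and 353 CPM without it in iE9. In WT, RRM2 was at 81.4 and 83.7 CPM with PMA and 368 and 359 CPM without it. Its changes did not pass (-0.94 in iE9, adjusted p = 0.249, and -2.14 in WT, adjusted p = 0.0501). BUB1, a kinase of the spindle checkpoint, fell in both lines, by 1.20 in iE9 (adjusted p = 0.0226) and 2.33 in WT (adjusted p = 0.00271). MYC fell deeply in both, to 6.02, 11.6 and 4.69 CPM with PMA in iE9 and 5.37 and 7.03 CPM with PMA in WT, with a response difference of 0.81 ± 0.54. The higher CDKN1A response of iE9 stood beside these values: of 13 CDK inhibitor and D cyclin genes 8 were above 0, with a median of 0.17 (0.05 to 0.24), and of 17 p53 targets 12 were above 0, with a median of 0.14 (0.07 to 0.17).

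**Figure D4:**
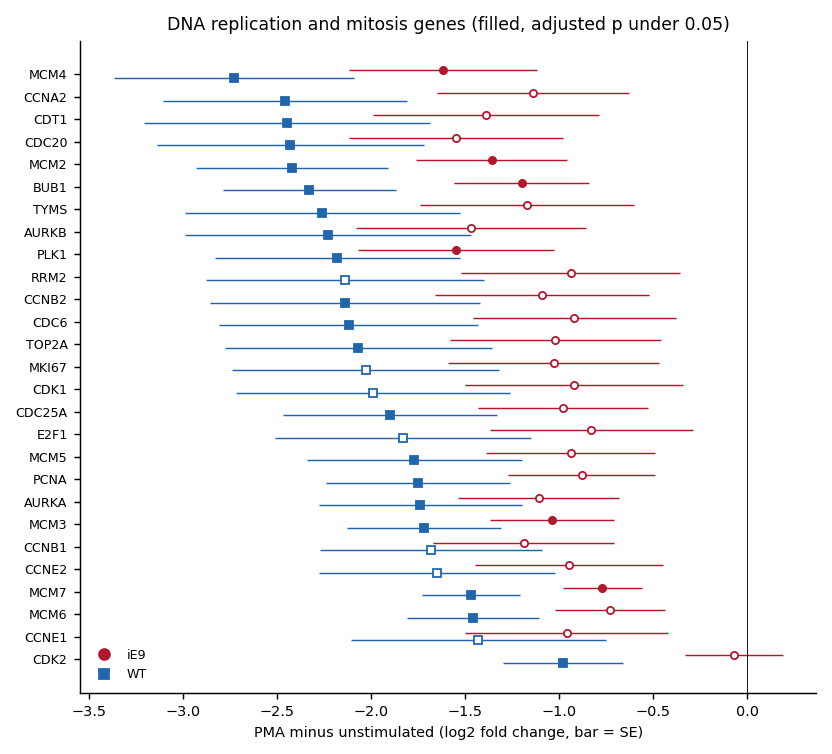
Log2 fold change with PMA for 27 genes of DNA replication and mitosis in iE9 (circles) and WT (squares), with bars of 1 standard error and filled symbols where the adjusted p is under 0.05. Every circle lies right of its square, with medians of -1.03 in iE9 and -2.03 in WT.

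Lists of biosynthesis and stress gave smaller medians. All 21 cholesterol and fatty acid synthesis genes tested were above 0, with a median of 0.36 (0.25 to 0.48), and 5 fell in iE9 and 8 in WT. Leaving out 1 library in turn brought the number above 0 down to 17 at the lowest. STARD4, a sterol carrier, was at 96.9, 91.6 and 93.7 CPM with PMA and 58.9, 67.1 and 59.7 CPM without it in iE9, against 62.1 and 65.9 CPM with PMA and 77.3 and 75.1 CPM without it in WT. The order of its states differed between the lines, though neither change passed (0.60 in iE9, adjusted p = 0.0727, and -0.25 in WT, adjusted p = 0.572). All 20 ribosome biogenesis genes fell in iE9 and 17 fell in WT, against 14.4% and 11.3% of all genes. Their median response difference was -0.12 (-0.20 to -0.03) with 4 above 0, a number between 2 and 9 as single libraries were left out. RRS1, a ribosome assembly factor, fell in iE9 (-1.47, adjusted p = 0.000196), against -0.57 in WT (adjusted p = 0.119).

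Of 20 genes of the unfolded protein, integrated stress and heat shock responses 14 were above 0, with a median of 0.30 (0.19 to 0.44). ASNS, asparagine synthetase, a target of ATF4, was at 53.6, 57.5 and 59.6 CPM with PMA and 8.85, 11.6 and 4.25 CPM without it in iE9. In WT, ASNS was at 70.2 and 75.6 CPM with PMA and 47.4 and 42.1 CPM without it. The unstimulated iE9 libraries were the low group (-2.43 against unstimulated WT, adjusted p = 0.00822). ASNS rose in iE9 (2.78 ± 0.38, adjusted p = 0.000124), against 0.70 ± 0.43 in WT (adjusted p = 0.255), a response difference of 2.08 ± 0.56 (adjusted p = 0.487, and 0.0065 in the 2-library fit). Of 19 glycolysis genes 11 were above 0, with a median of 0.02 (-0.08 to 0.12), and ALDOC, a brain-type aldolase, rose in both lines (3.56 in iE9 and 2.51 in WT). Among 21 BCL2 family and death regulators the median was 0.03 (-0.00 to 0.20), and BCL2L11, the pro-apoptotic protein BIM, fell in both lines (-0.95 in iE9 and -1.82 in WT).

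Interferon-induced genes did not move as a block. Of 29 tested, 20 rose and 1 fell with PMA in iE9, and 12 rose and 2 fell in WT, with a median response difference of 0.38 (0.16 to 0.53), 19 above 0 and 10 below. The list held members at both ends, since GBP5 and GBP2 had response differences of -3.25 and -2.00 and OAS3, an RNA-sensing synthetase, one of 1.85 ± 0.59. OAS3 was at 64.4, 54.9 and 62.6 CPM with PMA and 14.7, 14.9 and 20.6 CPM without it in iE9, against 27.4 and 25.4 CPM with PMA and 24.6 and 27.7 CPM without it in WT. PMA-treated iE9 libraries were the high group, and OAS3 rose in iE9 (1.86, adjusted p = 0.00265) with a WT value of 0.01 (adjusted p = 0.992). Of 18 antigen presentation genes 12 were below 0, with a median of -0.11 that turned to 0.31 without unstimulated iE9 library 1, 1 of 3 libraries whose absence turned its sign, and was -0.42 without PMA-treated iE9 library 1. TAPBP, the peptide-loading protein tapasin, gave -0.46 ± 0.41.

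Of 26 integrin, adhesion and homing genes 16 were below 0, with a median of -0.33 (-0.67 to 0.18), which was above 0 without unstimulated iE9 library 1 and below 0 without any other. S1PR1, the sphingosine 1-phosphate receptor that lets lymphocytes leave tissue, was at 8.58, 5.36 and 7.01 CPM with PMA and 24.9, 10.2 and 21.6 CPM without it in iE9. In WT, S1PR1 was at 16 and 13.3 CPM with PMA and 4.29 and 4.8 CPM without it. Its states stood in opposite order in the lines, though neither change passed (-1.44 in iE9 and 1.69 in WT), and the response difference was -3.13 ± 0.87 (adjusted p = 0.492, and 0.0033 in the 2-library fit). Medians were 0.03 (-0.02 to 0.10) over 31 splicing regulators and 0.15 (0.06 to 0.26) over 32 histone-modifying enzymes, where KDM6B, a histone H3 lysine demethylase, rose by 0.98 in iE9 and 1.80 in WT. The 13 mitochondrially encoded genes had a median of -0.09, which ran from -0.60 to 0.38 as single libraries were left out, and MT-CYB, which encodes cytochrome b, gave -0.30 ± 0.52.

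**Figure D5:**
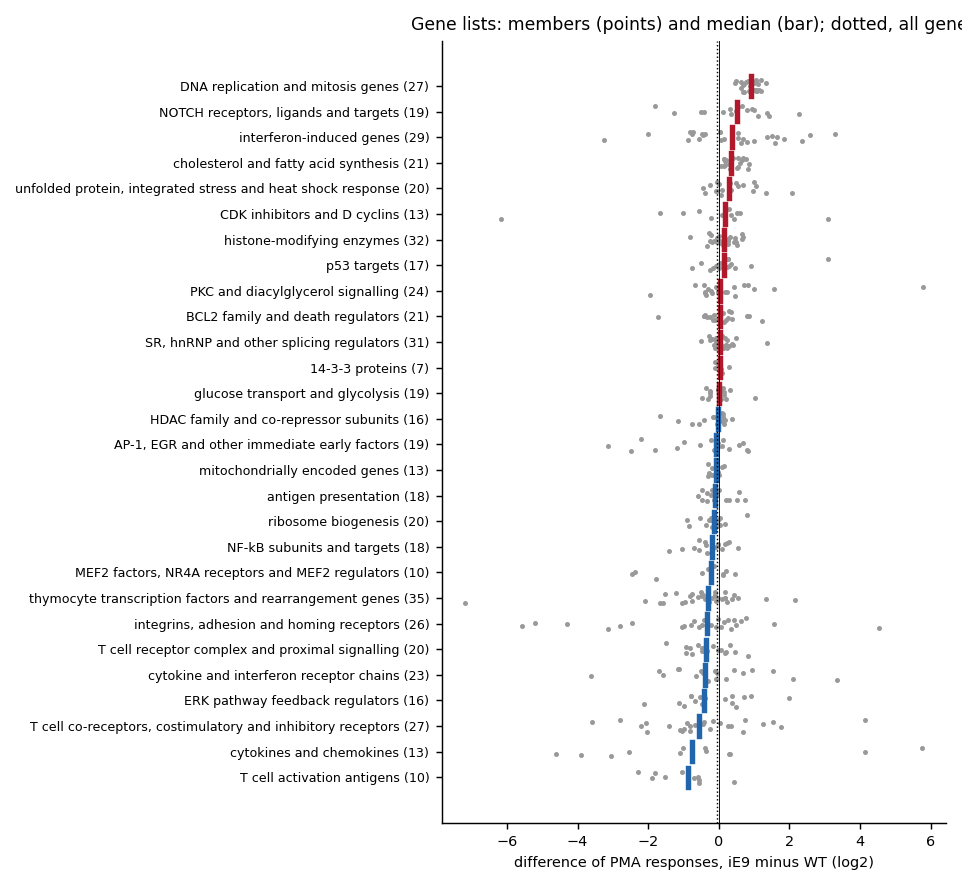
Response difference of each member (grey points) and list median (bar) for 28 gene lists, with the number of members tested in brackets and the median of all genes dotted. DNA replication and mitosis genes are highest, with a median of 0.92, and T cell activation antigens lowest, with -0.88.

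Markers of other blood cells were read beside these values. The summed level of 14 natural killer and cytotoxic markers was 158 to 402 CPM with PMA and 39.4 to 159 CPM without it in iE9, and 221 to 290 CPM with PMA and 22.6 to 23.3 CPM without it in WT. GZMA alone made up most of the sums with PMA, at 282, 111 and 108 CPM in iE9 and 236 and 164 CPM in WT. TYROBP was at 0 in all 4 groups. In iE9 not all members went with the sum. KLRD1 was at 2.24, 0.493 and 0.828 CPM with PMA and 17.7, 5.82 and 3.76 CPM without it there. GZMM was at 8.19, 0.924 and 0.828 CPM with PMA and 16.7, 3.04 and 2.16 CPM without it. PRF1, which encodes perforin, was at 22.5, 5.54 and 7.67 CPM with PMA and 9.56, 3.67 and 1.88 CPM without it in iE9, against 8.28 and 11.1 CPM with PMA and 0.134 and 0.356 CPM without it in WT. It rose in WT (5.24, adjusted p = 0.00197). The sum of 14 myeloid and mast cell markers was 17.2 to 47.3 CPM with PMA and 11.3 to 20.9 CPM without it in iE9, and 101 to 115 CPM with PMA and 16.7 to 17.7 CPM without it in WT, with CPA3 at 0 in PMA-treated iE9 and in unstimulated WT cells. HDC alone made up most of the sum in PMA-treated WT libraries, at 92.2 and 85.7 CPM. It was at 30.7, 8.38 and 37.5 CPM in PMA-treated iE9 libraries. KIT went the other way and was lower with PMA in both lines. T lineage sums were 4083 to 6430 CPM with PMA and 2760 to 5338 CPM without it in iE9, and 3652 to 3688 CPM with PMA and 2099 to 2134 CPM without it in WT. CD7, a T and NK cell glycoprotein, gave a response difference of -2.20 ± 0.98.

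B cell marker sums were 225 to 421 CPM with PMA and 49.5 to 139 CPM without it in iE9, and 44.4 to 78.3 CPM with PMA and 21.3 to 26.3 CPM without it in WT, with CD22 at 0 throughout. CD79A alone made up most of the sums with PMA, at 402, 206 and 226 CPM in iE9 and 57.8 and 29.3 CPM in WT. CD79B, a chain of the B cell receptor, was at 0.96, 0.123 and 0.0552 CPM with PMA and 3.31, 1.1 and 0.348 CPM without it in iE9, and had 45 counts in PMA-treated and 1 in unstimulated WT libraries. Epithelial sums were 0.67 to 2.83 CPM over the 10 libraries, where KRT5, a basal keratin, had 2 counts in PMA-treated and 9 in unstimulated iE9 libraries, against 7 in PMA-treated and 0 in unstimulated WT libraries. Erythroid sums were 6.28 to 33.6 CPM with PMA and 3.91 to 5.99 CPM without it in iE9, and 2.51 to 2.63 CPM with PMA and 2.95 to 4.15 CPM without it in WT, so that every PMA-treated iE9 library lay above all others. HBA2, whose reads can be shared with HBA1 and were then divided by estimate, was at 18, 2.96 and 5.68 CPM with PMA and 0.76, 2.88 and 0.696 CPM without it in iE9, and had 0 counts in PMA-treated and 8 in unstimulated WT libraries. Sums of 10 fibroblast and endothelial markers were 69.2 to 101 CPM with PMA and 28.8 to 39.3 CPM without it in iE9, and 48.3 to 48.9 CPM with PMA and 23.8 to 24.8 CPM without it in WT. PECAM1 alone made up most of these sums, at 89.9, 58.1 and 61.9 CPM with PMA in iE9 and 35.3 and 32.6 CPM with PMA in WT. COL3A1, a fibrillar collagen, was at 1.02, 0.862 and 0.883 CPM with PMA and 0.163, 0.105 and 0.0696 CPM without it in iE9, and had 200 counts in PMA-treated and 2 in unstimulated WT libraries. With PMA it was thus higher in WT, at 4.11 and 7.03 CPM, the opposite order to the sums. The part of other cell types in the response differences was not tested.

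The same contrast was taken with dE9 in place of WT, which reuses the iE9 libraries, so the values are given side by side and not as independent support. Against dE9, 0 of 18073 genes passed (0%), and 1239 (6.86%) had an unadjusted p under 0.05, of which 556 (3.08%) were higher and 683 (3.78%) lower in iE9. BIN1 gave -1.42 against dE9 and -2.41 against WT, GBP5 -2.89 and -3.25, and KRT1 -2.79 and -3.79. RASL10B gave 2.10 against dE9 and 2.14 against WT, PEAK1 1.20 and 1.18, and RHOU 1.98 and 2.69. CDKN1A gave 0.99 (unadjusted p = 0.117) against dE9 and 3.09 against WT, and it also rose with PMA in dE9 (2.99, adjusted p = 0.000184).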

How the data were processed

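The submitters' processing notes name Salmon, DESeq2 and the hg38 build; the sources used here give neither their versions nor the strandedness. The deposited transcript tables hold estimated counts, TPM and effective lengths, per the file headers, and the authors' TPM sum to 1 fixed total. The authors' deposited gene table of TPM gave the same gene sums as the transcripts (largest difference 0). All 205870 of 205870 transcripts matched GENCODE release 29.

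Gene sums of these counts were rounded to whole numbers. Of 33304 genes with a count, filterByExpr kept 18073. The test was edgeR 4.0.16 (R 4.3.3), quasi-likelihood F test, two-sided, TMM factors, robust off, 1 coefficient for each of the 6 groups over all 16 libraries, Benjamini-Hochberg over 18073 genes. The common biological coefficient of variation was 31.8%. DESeq2 1.42.0 and limma 3.58.1 were alternatives. The edgeR step was also run on simulated counts in which all libraries had the same spread for a given gene. The larger spread that came with the iE9 libraries numbered 1 was not simulated, so the simulation cannot speak to its effect. Every pair of replicates differed beyond sampling noise (lowest chi-square per degree of freedom 7.14). Intervals cover counting error only.

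No gene passed, so by the rule the 12 per direction with the smallest p were taken, among genes with at least 5 CPM in the highest group and no clone-based or pseudogene symbol, with the member of smallest p of each list. A few genes that the rule names are not reported here. Members and the 35 lists were chosen with earlier results of these data known.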

Additional observations from a re-analysis of the deposited data

How the results depend on the processing

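Of the genes tested, 0 passed for the response difference in the main fit, and 0 with RLE factors, robust estimation, a length offset, without mitochondrial genes, or at an adjusted p under 0.1. The count was 292 without a filter, 62 with DESeq2, 16 with limma voom, 30 with the 10 iE9 and WT libraries alone, and 2 without both iE9 libraries numbered 1. In the 2-library fit, added after the data were seen, it was 1140. Leaving out 1 library in turn gave 0 to 2. Of the 24 genes taken for the smallest p in these same libraries, a choice that favours their being called again, these settings called 19, 24, 11, 9, 2 and 24, and 0 to 1 with 1 library left out. Of list members they called 44, 7, 2, 7, 0 and 111, and 0 to 1. The cause of these differences between settings was not tested.

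With the library number as a replicate block within each line, 35 genes passed, 10 of the 24 and 6 list members. With the replicate block across lines it was 2 genes, 1 and 0. With the block within each line and iE9 and WT libraries alone, also added after the data were seen, 1304 genes passed, 24 of the 24 and 141 list members. Same-numbered libraries correlated at 0.19 to 0.44 in iE9, 0.24 to 0.30 in dE9 and 0.07 in WT. Only WT was under the 0.1 that was asked of every pair, so the numbers were not taken to pair samples, although each library correlated best with its own number.

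The share of genes with a smaller response in iE9 (66.4%) was 64.4% with the replicate block within lines, 63% without both iE9 libraries numbered 1, 64.6% in the 2-library fit, and 59.9% to 71.1% with 1 library left out. The 54.8% of lower genes with a WT rise was 61.5% with DESeq2, 71.4% with limma voom, 63.3% with the 10 libraries, 59.5% with these and the block, and 35.1% to 58.3% with 1 library left out. The difference in exon 9 share was -25.16 points over protein-coding transcripts and -19.72 to -6.54 with 1 library left out. For iE9 against dE9, 0 to 461 genes passed with 1 library left out, 461 of them without PMA-treated dE9 library 1 and 15 without library 3.

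Of the genes named, 4 turned sign for 1 library left out, none of which had passed. TNF ran from -0.18 (without unstimulated WT library 1) to 7.44, MT-CYB from -0.79 to 0.17 (without unstimulated iE9 library 1), CD5 from -0.19 (without PMA-treated iE9 library 1) to 0.65, and RAG1 from -0.29 to 0.02 and 0.05 (without unstimulated iE9 library 1 and unstimulated WT library 2). The 2 or 3 libraries a group limit the precision, and medians over all genes moved by less than 0.1 between scalings.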
